A study of Homo sapiens with 4 samples.

Results

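The apolipoprotein L genes *APOL1*, *APOL2*, *APOL3*, *APOL4* and *APOL6*, 5 of the 46660 gene identifiers in the expression table, were followed across the 4 libraries of the study. The members were taken as a named list of the family cluster on chromosome 22. They and the comparison lists were chosen with earlier results of these data known. Counts set beside the share of all genes therefore describe these lists and are no independent support. *APOL5*, the remaining gene of that cluster, had no linear RNA in the expression table and could not be measured. The study sequenced mRNA from U87MG and U251MG, established human glioblastoma cell lines, to ask which genes change when *FLI1*, an ETS family transcription factor, is knocked down. In each cell line 1 library came from cells carrying the empty lentiviral vector pGreen (control, titled shControl) and 1 from cells carrying lentivirus with shRNA against *FLI1* (shFLI1). All cells had been infected, selected with puromycin and collected as mixed stable populations, so no library represents uninfected cells or a single clone. The libraries held between 12229779 and 28891055 counts on linear RNAs, and the shFLI1 library was the deeper one in both cell lines.

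Apolipoprotein L proteins are predicted to form amphipathic helices that insert into membranes, and in spite of their name most of them act inside the cell rather than on lipoprotein particles. APOL1 carries a signal peptide, circulates with high-density lipoprotein and lyses African trypanosomes, whereas the other members lack that role in serum. The family expanded by duplication in primates and are known to be induced by interferon gamma and by tumor necrosis factor, in particular in endothelial cells.

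All 4 *APOL* genes that could be measured fell in shFLI1 cells. *APOL3* fell furthest and *APOL2* least in both cell lines, with *APOL1* and *APOL6* between them, and all 4 falls were larger in U251MG than in U87MG. Summed over the 5 members, the level went from 166 to 73.0 CPM (TMM-scaled CPM, that is, counts relative to library size) in U87MG, or 43.9% of control, and from 200 to 50.2 CPM in U251MG, or 25.1% of control. *APOL4* stayed at 6 to 9 counts in every library, below the minimum of 10 counts, and no direction was read from it. A lower level in such bulk libraries can come from fewer expressing cells or from less RNA per cell, which cannot be told apart.

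A gene was counted as past 2-fold in a cell line when it had at least 10 counts in 1 of its 2 libraries and its log2 CPM, with a prior count of 2, differed by more than 2-fold. With 1 library per arm this has no replicate check, and the 95% Clopper-Pearson intervals given below cover counting error only. In U87MG, 3 of the 4 measured members were past 2-fold and lower, against 4.45% of the 17355 genes measured there. In U251MG, 4 of 4 were past 2-fold and lower, against 4.19% of 18222 genes. Past 2-fold and higher were 0 members, against 10.0% and 5.57% of genes, and the shares in either direction were 14.5% and 9.76%. Past 2-fold and lower in both cell lines were 3 of the 4 members, against 1.45% of 16384 genes measured in both.

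A change common to U87MG and U251MG was assessed in 1 fit of all 4 libraries by the quasi-likelihood test of edgeR. Cell line entered as the block, and 1 residual degree of freedom remained. The cell lines serve there as the replicates. The P values rest on how alike the change was in the cell lines and on a spread estimated partly across all genes. They hold no spread between replicates of a cell line. At a Benjamini-Hochberg adjusted P below 0.05, 4 of the 4 measured members were lower, against 2.14% of 16649 genes. The share of genes called higher was 0.931% and that in either direction 3.08%. Without the cell line block, 0 genes passed in edgeR's test, none of the members among them, and 725 genes had an unadjusted P below the same threshold.

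**Figure D1:**
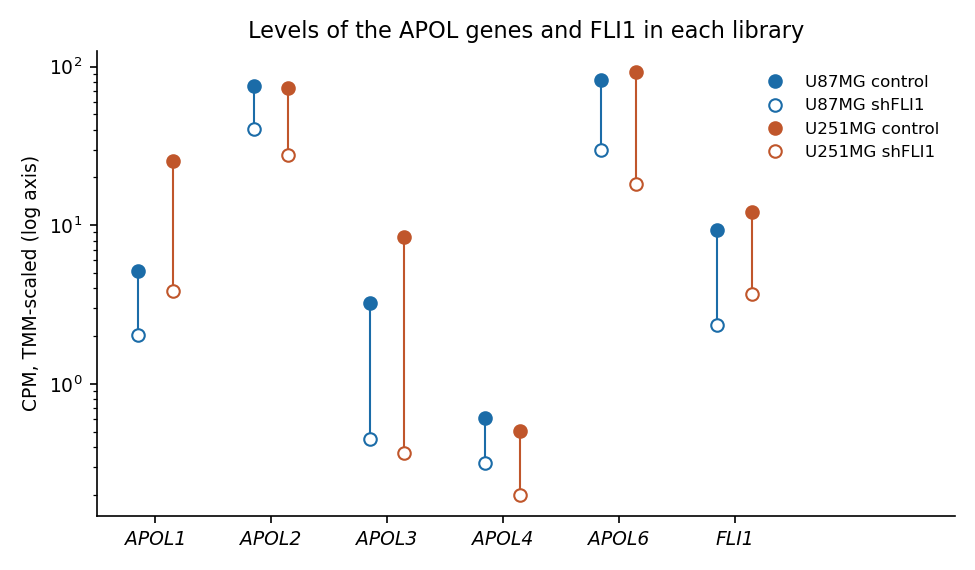
CPM after TMM scaling on a log axis for the 5 *APOL* genes and *FLI1*, with 1 point per library; filled points are control and open points shFLI1, blue for U87MG and orange for U251MG, and lines join the libraries of a cell line. Every shFLI1 point lies below its control; *APOL4* rests on 6 to 9 counts per library.

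The targeted gene was lower in both shFLI1 libraries. For *FLI1* (Entrez gene 2313), control and shFLI1 libraries had 107 and 52 counts in U87MG (9.34 and 2.34 CPM) and 216 and 111 counts in U251MG (12.1 and 3.71 CPM). Its shared log2 fold change was -1.85 (edgeR adjusted P = 0.00682).

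*APOL1* (Entrez gene 8542) spans bases 36253071 to 36267530 of chromosome 22 in GRCh38, plus strand. Its U87MG counts were 59 (5.15 CPM) in the control and 45 (2.02 CPM) with shFLI1. Its U251MG counts were 451 (25.3 CPM) and 115 (3.84 CPM). The U251MG control library thus stood above the other 3, which lay between 2.02 and 5.15 CPM. The log2 fold change was -1.31 in U87MG (95% interval -1.94 to -0.76) and -2.69 in U251MG (-3.03 to -2.42). The shared log2 fold change was -2.16 (edgeR adjusted P = 0.0120, lower in 2 of 2 cell lines).

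*APOL2* (Entrez gene 23780; chromosome 22, 36226209 to 36239954, minus strand) encodes a cytoplasmic member without a signal peptide. Control and shFLI1 counts of *APOL2* were 859 and 898 in U87MG (75.0 and 40.4 CPM) and 1300 and 825 in U251MG (72.9 and 27.6 CPM). The control libraries were nearly level and both shFLI1 libraries lay below them. In U87MG the raw count of *APOL2* was higher in the deeper shFLI1 library, so the difference there rests on the scaling. The log2 fold change was -0.89 in U87MG (-1.03 to -0.76), which did not reach 2-fold, and -1.40 in U251MG (-1.53 to -1.28). The shared log2 fold change was -1.17 (edgeR adjusted P = 0.00808).

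*APOL3* (Entrez gene 80833; chromosome 22, 36140329 to 36166177, minus strand) encodes an intracellular protein described at Golgi membranes and as a detergent-like killer of cytosolic bacteria. Control and shFLI1 counts of *APOL3* were 37 and 10 in U87MG (3.23 and 0.450 CPM) and 150 and 11 in U251MG (8.41 and 0.367 CPM). Both shFLI1 libraries were near the detection limit, at 13.9% of control in U87MG and 4.37% in U251MG. The log2 fold change was -2.60 in U87MG (-4.02 to -1.81) and -4.19 in U251MG (-5.55 to -3.64), the widest intervals among the 4 measured members. The shared log2 fold change was -3.77 (edgeR adjusted P = 0.00548).

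*APOL6* (Entrez gene 80830; chromosome 22, 35648446 to 35668404, plus strand) encodes a member that was described to trigger mitochondrial cell death when overexpressed. Control and shFLI1 counts of *APOL6* were 942 and 663 in U87MG (82.3 and 29.8 CPM) and 1652 and 546 in U251MG (92.7 and 18.2 CPM). Its raw counts were lower in the deeper library of each pair. The log2 fold change was -1.46 in U87MG (-1.61 to -1.32) and -2.34 in U251MG (-2.49 to -2.20), and the shared log2 fold change was -1.92 (edgeR adjusted P = 0.00227), the smallest adjusted P of the members.

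*APOL4* (Entrez gene 80832; chromosome 22, 36189124 to 36204840, minus strand) had 7 counts in each U87MG library, 9 in U251MG control and 6 in U251MG shFLI1. Its counting intervals of the log2 fold change ran from -2.70 to 0.78 in U87MG and from -3.10 to 0.32 in U251MG. A difference in *APOL4* was therefore not detectable at this depth.

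**Figure D2:**
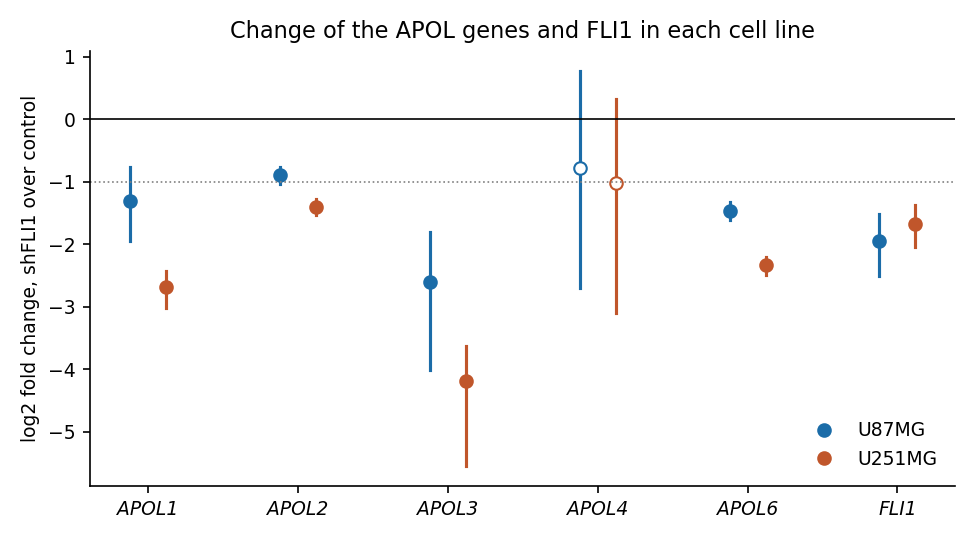
Log2 fold change of shFLI1 over control for the 5 *APOL* genes and *FLI1* in U87MG (blue) and U251MG (orange). Vertical lines are 95% Clopper-Pearson intervals of the reads, open points have fewer than 10 counts in both libraries, and the dotted line marks 2-fold lower; *APOL2* in U87MG (-0.89) lies above that line and *APOL3* in U251MG (-4.19) lies lowest.

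The fall of each measured member was larger in U251MG. The difference between the log2 fold changes, U251MG minus U87MG, was -1.38 for *APOL1* (95% exact interval of the reads -2.03 to -0.70) and -0.51 for *APOL2* (-0.70 to -0.32). It was -1.59 for *APOL3* (-3.16 to -0.15) and -0.88 for *APOL6* (-1.08 to -0.68), whereas for *FLI1* it was 0.27 (-0.32 to 0.91). With 4 libraries no degree of freedom is left to test this difference between the cell lines. Among all genes measured in both cell lines, 52.4% had a lower value in U251MG, with a median difference of -0.02.

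The control libraries differed by member. *APOL1* was higher in U251MG than in U87MG control by a log2 difference of 2.27 (95% interval of the reads 1.90 to 2.71) and *APOL3* by 1.35 (0.85 to 1.94), while *APOL2* differed by -0.04 (-0.17 to 0.09) and *APOL6* by 0.17 (0.06 to 0.29). In shFLI1 cells *APOL1* was still higher in U251MG, by 0.89, and *APOL2* and *APOL6* were lower there, by log2 differences of -0.55 and -0.71. For *APOL3* the value was -0.23, on 10 counts in U87MG and 11 in U251MG, too few to read a direction. The composition of the family shifted with this: *APOL2* took 45.1% of the summed CPM in U87MG control and 55.3% in U87MG shFLI1, and 36.5% and 54.9% in U251MG.

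Levels of different members were compared per length, with the authors' FPKM summed over the RNAs of each gene. In U87MG control the order was *APOL2* at 32.4 FPKM, *APOL6* at 7.85, *APOL1* at 2.79, *APOL3* at 2.23 and *APOL4* at 0.480. In U251MG control it was *APOL2* at 33.2, *APOL1* at 13.7, *APOL6* at 9.46, *APOL3* at 4.96 and *APOL4* at 0.510. *APOL1* and *APOL6* thus changed places between the control libraries. That change depends on the RNA URS0001BD91AD, which gave 4.96 of the *APOL1* FPKM in U251MG control from 11.2% of the gene's counts. Without it *APOL1* would lie below *APOL6* there. The canonical transcript of *APOL6* has 10065 exonic bases against 2429 for *APOL2*. In shFLI1 cells the FPKM were 19.9 for *APOL2*, 3.27 for *APOL6*, 1.33 for *APOL1*, 0.25 for *APOL3* and 0.120 for *APOL4* in U87MG. In U251MG shFLI1 they were 13.3, 1.98, 1.67, 0.220 and 0.120 in that order of genes. Among genes with a symbol and at least 10 counts, *APOL2* stood at the 80.8th percentile of FPKM in U87MG control and the 61.0th in U251MG shFLI1, and *APOL3* at the 35.6th in U251MG control and the 4.40th in U251MG shFLI1. Without replicates, no spread stands behind these orders.

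Each gene value is a sum over annotated RNAs, and the division of reads among RNAs of 1 gene is an estimate. *APOL6* was counted mostly on NM_030641, whose share of the gene was 96.2% in control and 81.9% in shFLI1 cells of U87MG, and 88.6% and 83.5% in U251MG. NM_030641 went from 79.1 to 24.4 CPM in U87MG and from 82.1 to 15.2 CPM in U251MG. The second RNA, XM_011530392, went the other way in U87MG, from 3.05 to 5.29 CPM, and from 10.3 to 2.98 CPM in U251MG. The 2 RNAs of *APOL6* therefore differed in direction in U87MG and not in U251MG, with no test possible within a cell line.

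*APOL2* was spread over 7 RNAs with at least 10 counts in a library, led by NM_030882 with 65.0% and 71.1% of the gene's counts in U87MG control and shFLI1 and 69.0% and 65.2% in U251MG. NM_030882 went from 48.7 to 28.7 CPM in U87MG and from 50.3 to 18.0 CPM in U251MG. XM_011530077 was seen in the controls, with 72.0 counts in U87MG and 81.7 in U251MG, but not in either shFLI1 library. Reading 0 as a floor of 3 counts per library would put its level 46.6-fold lower in U87MG and 45.7-fold lower in U251MG. These figures are not firm bounds, because the division of reads among RNAs is itself an estimate. With this RNA left out of the sum, a choice made after seeing the data, the log2 fold change of *APOL2* was -0.77 in U87MG and -1.31 in U251MG, and the shared value -1.06 (edgeR adjusted P = 0.0140).

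*APOL1* in U251MG rested on NM_003661, whose 335 control counts (18.8 CPM) stood against 59.1 (1.97 CPM) after knockdown. In U87MG NM_003661 had only 21.23 and 14.96 counts. There NM_001136541 was listed with 23.0 counts in control and 0 in shFLI1, whereas in U251MG it had 0 in control and 15.9 in shFLI1. *APOL3* was split over 23 RNAs, of which 5 reached 10 counts in a library and none exceeded 34.0.

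**Figure D3:**
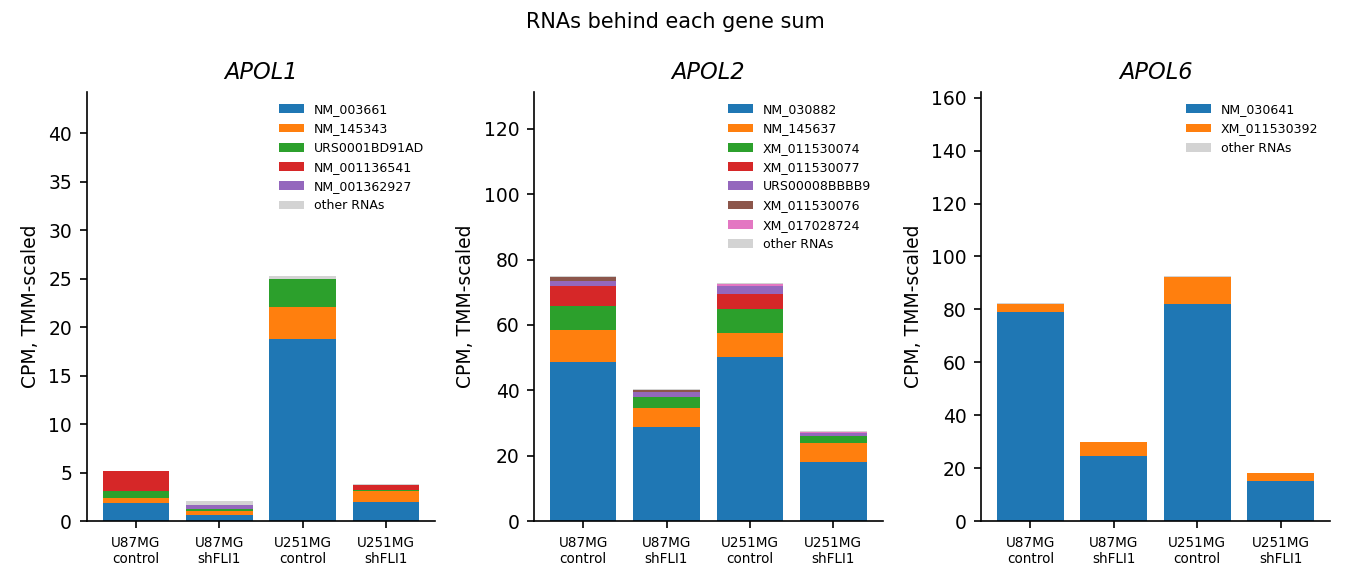
Stacked bars of CPM after TMM scaling for *APOL1*, *APOL2* and *APOL6* in each library; colours are the RNAs with at least 10 counts in a library and grey the remaining RNAs of the gene, with a separate axis from 0 for each gene. The dark blue RNA, NM_003661, NM_030882 or NM_030641, leads in U251MG for each gene, and the red RNA of *APOL2* is seen in the control bars only.

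The *APOL* genes lie among unrelated genes. *APOL6* lies apart from the others, with *RBFOX2*, which encodes a splicing regulator, between it and *APOL3*. A gap of 13749 bases separates *APOL1* from *MYH9*, a minus-strand gene that encodes a non-muscle myosin heavy chain. Of 13 listed neighbours, 10 were measured, and 0 passed the shared edgeR test at an adjusted P below 0.05, against 3.08% of all genes. Of these 10, 3 had an unadjusted P below that threshold and 0 passed in DESeq2. On the log2 scale *MYH9* differed by -0.33 in U87MG and by -0.18 in U251MG (edgeR adjusted P = 0.559), and *RBFOX2* had -0.57 and -0.33 (0.160). *HMOX1*, which encodes heme oxygenase 1 and was named after its values were seen, was the only neighbour past 2-fold, at -1.78 in U87MG and -0.28 in U251MG. The median of the neighbours was -0.17 in U87MG and -0.10 in U251MG, beside 0.06 and 0.04 over all measured genes.

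**Figure D4:**
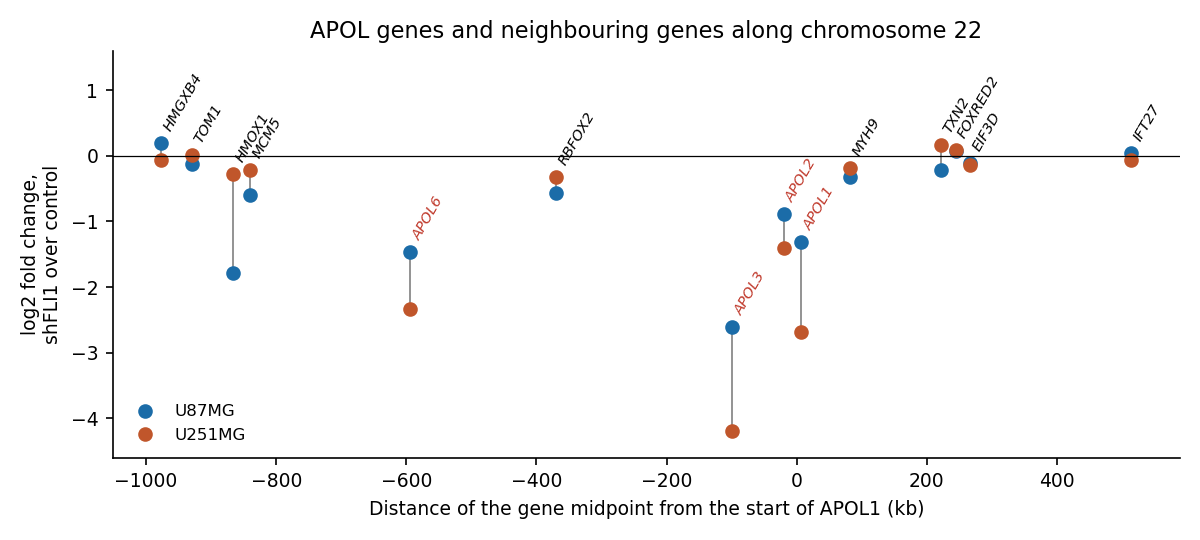
Log2 fold change of shFLI1 over control against the distance of each gene's midpoint from the start of *APOL1* in kilobases, for measured *APOL* genes (red names) and neighbouring genes (black names), with U87MG in blue and U251MG in orange. The 4 *APOL* genes lie at -0.89 or lower in both cell lines, and of the neighbours only *HMOX1* in U87MG (-1.78) reaches that range.

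Relatives of the family by sequence or by name did not pass the shared test. Few of them could be tested and 3.08% of all genes passed in edgeR, so 0 passing does not set them apart from genes at large. *APOLD1*, a chromosome 12 gene with an apolipoprotein L domain, differed by -0.83 in U87MG and by -0.29 in U251MG on the log2 scale (edgeR adjusted P = 0.222, unadjusted P = 0.0253). Of 14 listed apolipoproteins of other families, 4 were measured in the shared test and 0 passed it in edgeR or in DESeq2, with 0 at an unadjusted P below 0.05. *CLU*, which encodes clusterin, had 0.41 and -0.76, and *APOO*, which encodes a mitochondrial inner membrane protein, had -0.10 and 0.05. Of 6 listed partners of APOL proteins, 3 were measured and 0 passed in edgeR or DESeq2, with 0 at an unadjusted P below 0.05. *PI4KB*, the Golgi lipid kinase, had 0.04 and -0.14, and *NCS1*, a calcium sensor that binds APOL3, had -0.03 in both cell lines.

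Genes that interferon induces fell alongside the *APOL* genes. Of 46 listed genes induced by type I interferon, 44 were measured and 40 passed the shared test, all 40 lower, with 36 past 2-fold and lower in U87MG and 44 in U251MG. Their median log2 fold change was -1.83 in U87MG and -2.83 in U251MG, while the 4 measured *APOL* genes had -1.38 and -2.51. The list was led by *RSAD2*, which encodes viperin, with -4.69 and -5.65, *MX2*, an antiviral GTPase gene, with -4.56 and -5.50, *CMPK2* with -4.480 and -4.596, and *XAF1* with -3.65 and -4.95. Of these 44 genes, 9 had a lower value than *APOL3* in U87MG and 10 in U251MG, whereas 38 and 40 had a lower value than *APOL2*. For *APOL1* the numbers were 33 and 28, and for *APOL6* 32 and 30. Like the *APOL* genes, 43 of the 44 had a lower log2 fold change in U251MG than in U87MG, with a median difference of -0.95.

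Of 18 listed genes with strong induction by interferon gamma, 13 were measured and 9 passed the shared test, all lower, with a median of -1.62 in U87MG and -2.48 in U251MG. *PSMB9*, an immunoproteasome subunit gene, had -3.80 and -5.13, *TAP1*, a peptide transporter gene, -3.03 and -4.09, *IDO1*, which degrades tryptophan, -2.27 and -3.73, and *GBP1*, a guanylate-binding protein gene, -1.56 and -3.85. *CIITA*, the class II transactivator, named after its values were seen, had an adjusted P of 0.957 in edgeR, and *HLA-DRA* and *CD74* had at most 2 counts per library.

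Of 13 listed TNF and NF-kappaB targets, 11 were measured and 4 passed, all lower, with a median of -0.88 in U87MG and -0.84 in U251MG. *CXCL8*, a neutrophil chemokine gene, had -1.85 and -1.44, *RELB* -1.66 and -1.25, *NFKBIA* -1.004 and -0.720, and *NFKB2* -1.21 and -0.51. *CCL2*, a monocyte chemokine gene named after its values were seen, was the only one past 2-fold and higher, with 1.57 in U87MG, and it had -0.37 in U251MG.

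Of 15 listed receptors, kinases and transcription factors of interferon signalling, 14 were measured and 4 passed, all lower. *STAT2* had -1.36 in U87MG and -1.51 in U251MG, *IRF1* -0.88 and -1.80, and *IRF9* -0.96 and -1.31.

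**Figure D5:**
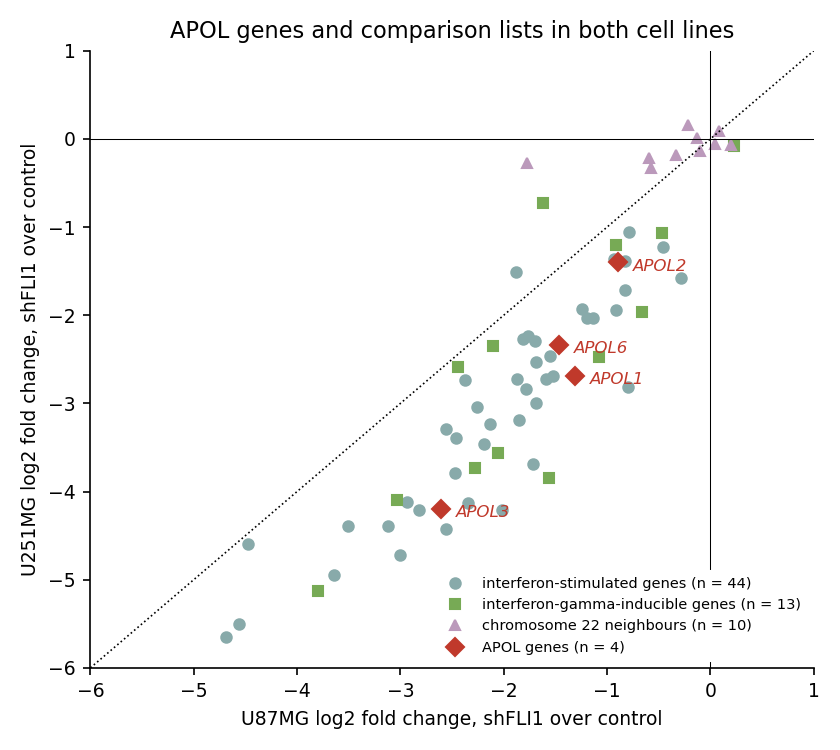
Log2 fold change of shFLI1 over control in U87MG (horizontal) and U251MG (vertical) for measured *APOL* genes (red diamonds), type I interferon-stimulated genes (grey-blue circles), interferon-gamma-inducible genes (green squares) and chromosome 22 neighbours (violet triangles); the dotted line marks equal change. The 4 *APOL* genes lie below the dotted line inside the cloud of interferon-stimulated genes, and the neighbours lie near 0 except *HMOX1* (-1.78 in U87MG).

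For each measured member, the 3 genes with the closest pattern were sought among 13361 genes with a symbol and at least 100 counts in total, by the Euclidean distance of log2 CPM centred over the 4 libraries. For *APOL3* they were *CD68* (distance 0.16), *IFIT1* (0.20) and *IFIT3* (0.23). For *APOL6* they were *C1S* (0.28), *DDX60* (0.28) and *DTX3L* (0.29), and for *APOL2* *DUSP10* (0.01), *FAS* (0.13) and *IRF9* (0.15). For *APOL1*, whose U251MG control level stands alone, *ZNF488* was closest (0.30), and *KCNK2* (0.64) was also among the 3. Of these genes, *IFIT1*, *IFIT3*, *DDX60* and *DTX3L* were also on the interferon list, *IRF9* on the signalling list and *CD68* on the list of myeloid markers. By contrast, *DUSP10*, *FAS*, *C1S*, *ZNF488* and *KCNK2* were on no list, and *DUSP10*, *C1S* and *ZNF488* were the closest genes to *APOL2*, *APOL6* and *APOL1*. With 4 libraries these distances describe the values and carry no test.

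Markers of glial and glioblastoma cells summed to between 5639 and 9194 CPM, of which *VIM* alone gave 2986 to 7004 CPM. *VIM*, *CD44*, *NES* and *SOX2* were counted in every library, with *S100B* at 11 counts or fewer and *OLIG2* at 2 or fewer. Of this list, *GFAP* (1.32 in U87MG and 2.19 in U251MG) and *FABP7* (1.39 and 1.20) rose, opposite to the *APOL* genes. Of the 4 myeloid markers, *CD68* fell with *APOL3*, from 47 to 12 counts in U87MG and from 163 to 14 in U251MG. *PTPRC*, which defines leukocytes, had 0 counts in both U87MG libraries, 1 in U251MG control and 5 in U251MG shFLI1, and *CSF1R* had 5, 3, 12 and 39 counts in the order of U87MG control, U87MG shFLI1, U251MG control and U251MG shFLI1. The summed level of the myeloid list was 4.54 and 0.674 CPM in U87MG control and shFLI1, and 9.87 and 1.94 CPM in U251MG. *CD68* alone gave 4.105 and 0.5395 CPM of it in U87MG and 9.143 and 0.4675 CPM in U251MG. In U251MG shFLI1 most of the sum came from *CSF1R* instead. The sum thus followed single genes, and a part of myeloid cells in the *APOL* values was not tested.

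Of the other marker lists described here, the summed levels ranged from 0.841 to 5.68 CPM for 3 endothelial genes, with *CDH5* and *VWF* the most counted and *PECAM1* at 3 counts or fewer. They ranged from 12.4 to 30.0 CPM for 3 neuronal genes, with *SYT1* and *SNAP25* the most counted, and from 0 to 1.57 CPM for 3 hepatocyte genes, led by *SERPINA1* and *ALB*. None of these 3 lists had a gene that passed in edgeR or DESeq2, beside 3.08% of all genes passing in edgeR. Of their genes 1, *SYT1*, had an unadjusted P below 0.05 in edgeR.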

How the data were processed

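Libraries were assigned from the sample titles and table columns from their headings. Per the paper's methods, the authors used HISAT2 to align reads of poly-T purified mRNA to GRCh38, and StringTie for FPKM, and the labels name patch 13 of that build. The deposited table holds 216388 RNAs, of which 185042 are linear, each with an estimated count and the authors' FPKM per library; the tool behind the estimated counts is not given in the sources used here. A further 10 value columns (TPM and means) were not used. Counts of linear RNAs were summed per gene identifier and rounded, and the RefSeq gene table gave symbols for 23775 of the 24411 Entrez identifiers. How reads that match more than 1 *APOL* paralog were assigned is not given in the sources used here. Gene positions are from GENCODE 44 (GRCh38). Matching of the members to the promoter table gave 0 entries, for *APOL1*, *APOL2*, *APOL3*, *APOL4* and *APOL6*, and protein sequences were not used here, so the planned description of promoters and proteins was not made.

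TMM scaling and all fits were made in edgeR 4.0.16 and DESeq2 1.42.0 under R 4.3.3, and tables were built in Python 3.11.15. The paper names DESeq2, which was run as an alternative; edgeR's quasi-likelihood test (genes kept by filterByExpr, Benjamini-Hochberg adjustment over all genes) was the main test. Reads amplified by PCR are not separate molecules, and the intervals and the floor of 3 counts express counting error alone. The members and gene lists were chosen with earlier results of these data known. Named outside the members were *FLI1*, *APOL5*, *APOLD1*, in each list up to 4 genes passing the shared test with the largest change or else the 2 with the most counts, and the 3 genes closest in pattern to each member; others are marked, and some genes under this rule are not reported here. Counts were simulated with 200 genes changed by a log2 fold of 2, alike in both cell lines, drawn from genes above a minimum expected count. There edgeR's test of the shared effect recovered 100.0% among 16908 genes, with 3 false calls. The changes of the *APOL* members differed between the cell lines. The simulated spread was also set to the same value for every gene rather than estimated from these data. Neither the recovery nor the number of false calls therefore need hold here. Within a cell line, 99.5% of the changed genes were recovered in U87MG and 100.0% in U251MG, and 420 and 376 genes simulated without a change were also past 2-fold.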

Additional observations from a re-analysis of the deposited data

Results flagged for a closer look

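The changes below had opposite signs in U87MG and U251MG, some of them within counting error of 0. With 1 library per arm the difference between the cell lines was not tested. *APOL6* RNA XM_011530392 went from 3.05 to 5.29 CPM in U87MG and from 10.3 to 2.98 CPM in U251MG. *APOL1* RNA NM_001136541 went from 2.01 CPM to 0 in U87MG and from 0 to 0.530 CPM in U251MG. *APOL2* RNA URS00008BBBB9 was nearly level in U87MG, at 1.49 and 1.53 CPM, and went from 2.52 to 0.835 CPM in U251MG. Among genes outside the family, the log2 fold changes in U87MG and U251MG were 1.57 and -0.37 for *CCL2*, 0.41 and -0.76 for *CLU*, and -0.54 and 0.21 for *VWF*. They were 0.044 and -0.137 for *PI4KB* and -0.099 and 0.051 for *APOO*. No gene total of an *APOL* member differed in direction between the cell lines.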

How the results depend on the processing

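With 1 library per arm no replicate could be left out; leaving out a cell line gives the value of the other with no test. In U87MG 3 members were past 2-fold, and 1 of 2 measured with at least 100 counts in 1 library, by construction a set without *APOL1* and *APOL3*. The other alternatives at 2-fold gave 2 or 3, and a threshold of 1.5-fold gave 4. In U251MG the count was 4 of 4. With no minimum count it was 5 of 5, against 6.87% of genes past 2-fold and lower. The member added there was *APOL4*, on 9 and 6 counts, from which no direction was read. Of the 4 members passing the shared test, 2 of 2 passed with at least 100 counts in every library and 0 without the replicate block, which pairs the libraries of a cell line. With only the most counted RNA of each gene 0 of 3 passed; in that fit edgeR called 0 of 15543 genes and 1539 had an unadjusted P below 0.05, and the cause was not tested. With DESeq2 405 genes and 4 members passed; with edgeR 512 genes passed (357 lower), 365 after scaling to total counts (199 lower) and 1304 when 1 count sufficed for testing, and 4 members passed in each. Over all alternatives the adjusted P of *APOL6* ranged from 1.16e-25 to 0.663 and that of *APOL1* from 2.35e-14 to 0.9999.

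Scaling to total counts moved the median of all U87MG genes from 0.06 to 0.22 and gave *APOL2* -0.73 and *APOL6* -1.30 there. FPKM on the log2(value + 1) scale gave *APOL1* -0.70 and *APOL3* -1.37 in U87MG and *APOL3* -2.29 in U251MG. Of 85 values of members and *FLI1* within a cell line under alternatives, 66 stayed within their counting interval, and no called value changed sign. The low counts of *APOL3* and *APOL4* limit their precision.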
